A study of Homo sapiens with 8 samples.

Results

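The 8 genes described here belong to cholesterol synthesis and its control, and were chosen by gene symbol from the 57756 genes listed in the expression tables. They are 6 enzymes, namely HMGCS1, FDPS, FDFT1, SQLE, LSS and DHCR7, and a pair of regulators, SREBF2 and INSIG1. In the study, RPS6, which is part of the small subunit of the ribosome, was immunoprecipitated together with its bound RNA, and this RNA was sequenced (RPS6 RIP) beside RNA from the same kind of cells without the precipitation (input). This was done in 4 human cancer cell lines with 1 RIP and 1 input library each, 8 libraries in all. The lines were Hep3B (hepatocellular carcinoma), HCT116 (colorectal carcinoma), DU145 (prostate carcinoma) and SW1990 (pancreatic adenocarcinoma). The methods give the liver line as Hep3B and the sample titles read 3B, whereas the cell line field of the labels gives Huh7, and the pair is called Hep3B below. The labels name no treatment and no genetic change for these 8 cultures. No library from a control antibody was analysed here, so that RNA held by the beads or the antibody alone was not measured. Each line gave 1 library of each kind, and the 4 lines therefore served as the replicates of the comparison between RIP and input.

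Cholesterol is built from acetyl-CoA in the cytosol and the endoplasmic reticulum. HMGCS1 makes HMG-CoA at the head of the mevalonate branch, FDPS makes farnesyl diphosphate, and FDFT1 joins farnesyl units into squalene. SQLE then oxidizes squalene, LSS closes the ring to give lanosterol, and DHCR7 carries out the last reduction to cholesterol. SREBF2 encodes the membrane-bound transcription factor SREBP-2, which is released by proteolysis when sterols are scarce and switches on the genes of the pathway. INSIG1 encodes a protein that holds SREBP in the endoplasmic reticulum when sterols are abundant. Because ribosomes carry the mRNAs that they translate, an RPS6 RIP recovers mRNA along with ribosomal and other RNA, and the ratio of RIP to input states how much of a transcript was recovered relative to all other transcripts of the library.

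Levels are given as FPKM, the fragments of a gene per kilobase of transcript and scaled to the mapped fragments of the library, as the authors computed them. Ratios on counts and tests rest on the deposited estimated counts, scaled to library size. The libraries held between 34630363 and 54209620 fragments, and any of the 8 genes drew between 765 and 28451 of them. The 95% Wilson interval of a gene's share of the fragments reached at most 7.34% of that share above it and less below it. These intervals cover counting error only, since fragments are not independent molecules, and were not computed for FPKM. In the Hep3B input, 7 of 7 liver genes stood at 75.0 FPKM or more and ALB at 5030 FPKM, whereas no liver gene exceeded 1.14 FPKM in the other inputs. The colon list was weak in HCT116, where 1 of 6 genes (CDX2, 6.25 FPKM) reached 1 FPKM, and 4 of 6 colon genes reached it in SW1990, with CDX2 at 86.6 FPKM. In Hep3B 2 of 6 colon genes reached 1 FPKM. In DU145 the prostate genes KLK2 and KLK3 were at 0 in the input and 1 of 5 prostate genes reached 1 FPKM. More prostate genes did so in SW1990 (3 of 5) and HCT116 (2 of 5). Of the 6 pancreatic duct genes, 4 reached 1 FPKM in SW1990, 4 in HCT116, 3 in DU145 and 2 in Hep3B. By these counts only the liver list set its own line apart.

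The 8 mRNAs were not recovered alike. LSS, DHCR7 and SREBF2 were between 3.06-fold and 3.80-fold higher in the RPS6 RIP than in the input, FDPS was 1.57-fold higher, and INSIG1 was 1.66-fold lower. HMGCS1, FDFT1 and SQLE did not pass the test. Across the genes with enough counts, 5282 of 19921 were higher in the RIP (26.5%) and 4960 were lower (24.9%) at an adjusted p under 0.05 by edgeR's quasi-likelihood test with the cell line as a block. With 51.4% of all tested genes called in either direction, the 5 of 8 members called, 4 higher and 1 lower, were not set apart by their number. With a minimum mean of 50 counts, 62.7% of the genes tested were called, and again 4 members were higher and 1 lower. The median log2 fold change of the 8 genes was 0.53, against -0.05 over all genes tested, noncoding genes included. Scaling by library totals in place of TMM factors (a scaling that assumes most genes do not change) moved the median of all genes by -0.35 to -0.40, and the higher share of all calls from 51.6% to 37.9%. Such a change of scaling moves all genes of a library alike, so distances from the median gene were bound to stay nearly unchanged. They are thus no check on the members: LSS lay 1.98 above the median gene and INSIG1 0.68 below it under both scalings.

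**Figure D1:**
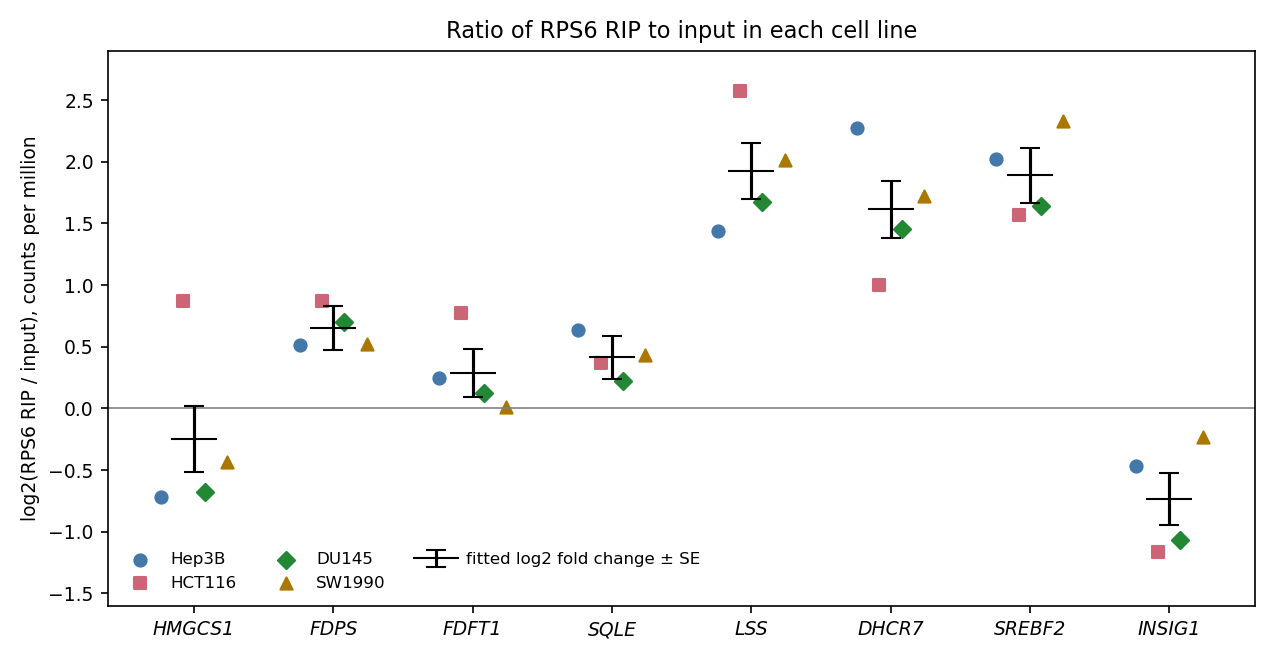
Ratio of RPS6 RIP to input on a log2 scale for each of the 8 genes, from counts scaled to library size with TMM factors, with 1 symbol per cell line and the fitted log2 fold change with its standard error in black. LSS, DHCR7 and SREBF2 lie between 1.002 and 2.58 in every line, and the other 5 genes lie between -1.17 and 0.87.

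Of the enzymes, HMGCS1 (ENSG00000112972, hg19 chr5:43287702-43313614) had the widest spread between lines. Its input level was 92.6 FPKM for Hep3B, 21.8 for HCT116, 67.9 for DU145 and 12.6 for SW1990. Its RIP level was 92.6, 50.6, 53.7 and 10.7 FPKM in the same order. By counts, HMGCS1 was higher in the RIP of HCT116, 1.83-fold, and lower in the RIPs of the other 3 lines, between 1.35-fold and 1.65-fold. The fitted log2 fold change was -0.25 ± 0.27 (SE, 4 lines, adjusted p = 0.464). Without the HCT116 pair it was -0.60 and passed (adjusted p = 0.0370), and within the table that holds Hep3B and HCT116 it was 0.018, against -0.62 (adjusted p = 0.0746) within the table of DU145 and SW1990.

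FDPS (ENSG00000160752, hg19 chr1:155278538-155300905) differed little between lines and was higher in every RIP. Its input level was 121 FPKM for Hep3B, 68.4 for HCT116, 116 for DU145 and 75.6 for SW1990. In the RIPs it measured 173, 148, 200 and 103 FPKM. The groups overlapped, because the SW1990 RIP lay below the Hep3B and DU145 inputs, but each RIP lay above its own input, by 1.43-fold to 1.82-fold on counts. The log2 fold change was 0.65 ± 0.18 (SE, 4 lines, adjusted p = 0.0101). That call was lost without the DU145 pair (0.64, adjusted p = 0.0583), within each table on its own (0.63 and 0.54, adjusted p = 0.227 and 0.118), and with library totals in place of TMM factors (0.30, adjusted p = 0.185). The listed locus of FDPS also holds RUSC1 and its antisense RUSC1-AS1, and RUSC1 had counts of up to 110% of those of FDPS. How reads were divided between these overlapping genes is not given in the sources used here. The 8 listed FDPS pseudogenes had at most 29.6 counts, or 0.645% of FDPS in the same library.

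FDFT1 (ENSG00000079459, hg19 chr8:11653081-11696818) stood at 57.4 FPKM in the Hep3B input, 88.6 in HCT116, 101 in DU145 and 122 in SW1990. Its RIP levels were 80.6, 168, 121 and 136 FPKM. SW1990 gave the highest input, unlike for any other of the 8 genes, and HCT116 the highest RIP. The ratio on counts ran from 1.01-fold in SW1990 to 1.71-fold in HCT116, and the log2 fold change was 0.29 ± 0.19 (SE, 4 lines, adjusted p = 0.242). It was 0.13 without the HCT116 pair, and with library totals in place of TMM factors the sign turned, to -0.060.

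SQLE (ENSG00000104549, hg19 chr8:126010738-126034525) was measured at 50.5 FPKM in the Hep3B input, 27.8 in HCT116, 59.9 in DU145 and 24.4 in SW1990. The RIPs gave 85.7, 36.5, 78.8 and 32.1 FPKM. Hep3B and DU145 were high and HCT116 and SW1990 low in both kinds of library. Each RIP lay above its own input, by 1.17-fold to 1.56-fold on counts, with a log2 fold change of 0.42 ± 0.17 (SE, 4 lines, adjusted p = 0.0690). On FPKM with limma, and with DESeq2, the gene passed (adjusted p = 0.0456 and 0.00766), but not with limma without a filter on low values (adjusted p = 0.0600).

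LSS (ENSG00000160285, hg19 chr21:47604992-47648738) was higher in the RIP of every line. Its inputs measured 20.9 FPKM for Hep3B, 9.77 for HCT116, 18.2 for DU145 and 9.63 for SW1990. Its RIPs measured 61.3, 57.7, 60.3 and 43.8 FPKM, and every RIP lay above every input. The highest and lowest inputs differed 2.17-fold and the highest and lowest RIPs 1.40-fold. HCT116 had a low input and a RIP near those of Hep3B and DU145, and so the largest ratio, 5.96-fold on counts. The log2 fold change was 1.92 ± 0.22 (SE, 4 lines, adjusted p = 5.96e-05), a 3.80-fold difference, the largest of the 8 genes with all 4 lines. Without the HCT116 pair it was 1.72, below SREBF2 (2.004) and DHCR7 (1.82).

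DHCR7 (ENSG00000172893, hg19 chr11:71139238-71163914) stood at 35.5 FPKM in the Hep3B input, 32.3 in HCT116, 141 in DU145 and 22.1 in SW1990. Its RIPs measured 191, 66.9, 382 and 76.9 FPKM. The DU145 input alone overlapped the RIPs, and DU145 was highest in both kinds of library. Ratios on counts were 4.83-fold in Hep3B, 2.003-fold in HCT116, 2.74-fold in DU145 and 3.30-fold in SW1990. The fit gave a log2 fold change of 1.61 ± 0.23 (SE, 4 lines, adjusted p = 0.000233). Without the cell line as a block the spread between inputs entered the error and the call was lost (1.62 ± 0.72, adjusted p = 0.183). A neighbour in the listed locus, RP11-660L16.2, had counts of up to 13.6% of those of DHCR7.

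SREBF2 (ENSG00000198911, hg19 chr22:42227218-42303312) had a fold change near that of LSS. In the inputs it measured 31.5 FPKM for Hep3B, 60.2 for HCT116, 59.3 for DU145 and 21.6 for SW1990. In the RIPs it measured 126, 149, 183 and 111 FPKM, and no RIP fell into the range of the inputs. The ratio on counts was 4.05-fold in Hep3B, 2.97-fold in HCT116, 3.12-fold in DU145 and 5.04-fold in SW1990, so that the lines with the lower inputs had the larger ratios. The log2 fold change was 1.89 ± 0.22 (SE, 4 lines, adjusted p = 6.33e-05). Within the table of Hep3B and HCT116 the log2 fold changes of LSS, DHCR7 and SREBF2 were 1.95, 1.58 and 1.74, and within that of DU145 and SW1990 they were 1.78, 1.52 and 1.92, and all 6 passed. LSS and SREBF2 passed in 16 of 16 other settings and DHCR7 in 15 of 16. MIR33A, the microRNA gene inside an SREBF2 intron, was listed at 0 in all 8 libraries.

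INSIG1 (ENSG00000186480, hg19 chr7:155089485-155101945) was the member called lower. Its input level was 19.4 FPKM for Hep3B, 72.4 for HCT116, 91.0 for DU145 and 32.0 for SW1990. The RIP level was 30.2, 39.1, 49.9 and 36.2 FPKM, a range of 1.65-fold against 4.69-fold in the inputs. On counts the gene was lower in each of the 4 RIPs, by 1.38-fold, 2.25-fold, 2.09-fold and 1.18-fold, and the log2 fold change was -0.73 ± 0.21 (SE, 4 lines, adjusted p = 0.0141). On FPKM it was lower in the RIP in HCT116 and DU145 and higher in Hep3B and SW1990, and limma on log2(FPKM + 1) gave -0.23 (adjusted p = 0.521). The call was also lost without the HCT116 pair (-0.58, adjusted p = 0.0689), without the DU145 pair (-0.62, adjusted p = 0.0866) and within each table on its own (-0.87 and -0.72, adjusted p = 0.0761 and 0.0698).

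**Figure D2:**
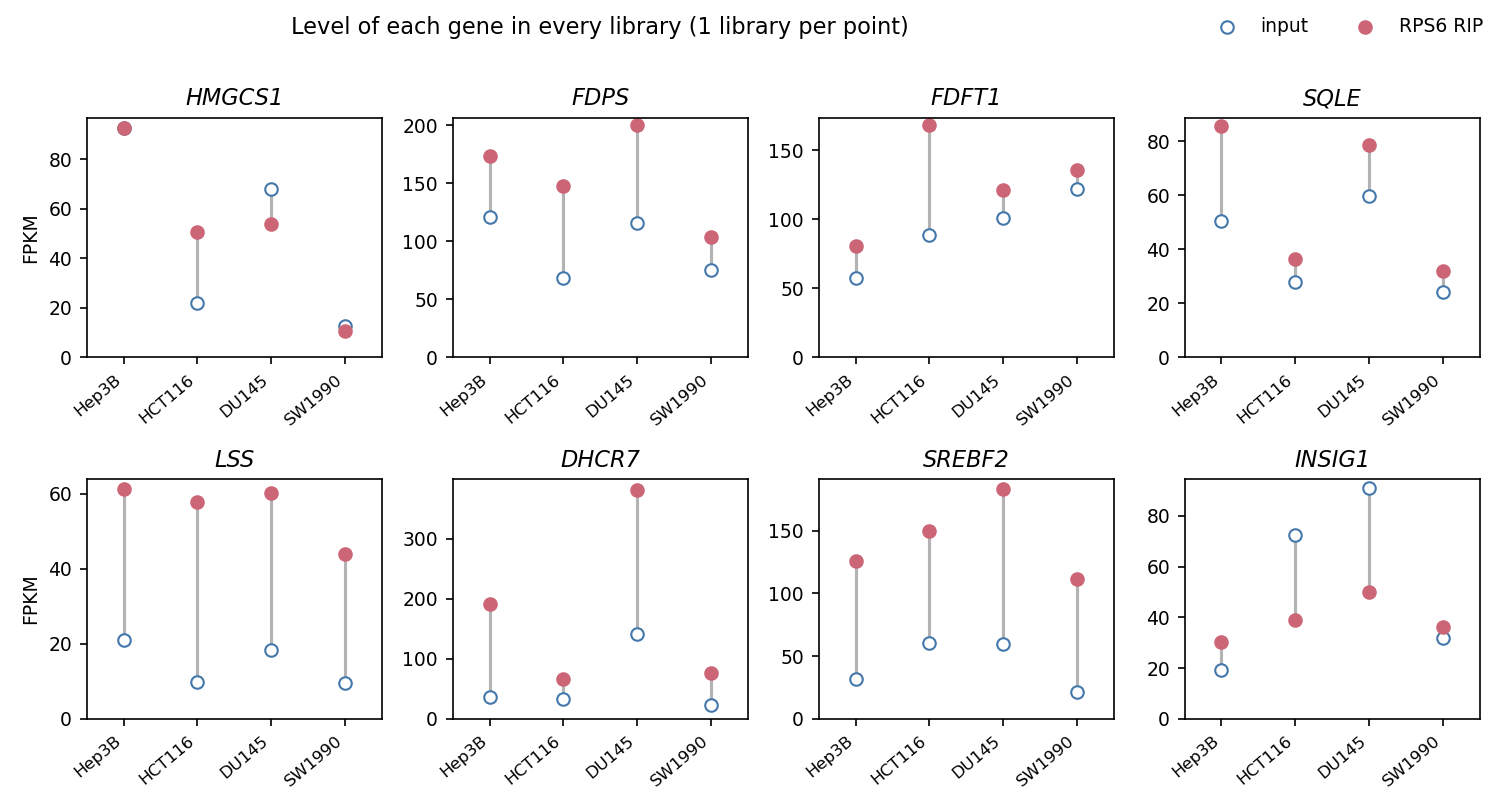
Level of each gene in FPKM (linear axis from 0, a separate scale per gene) in the 4 input libraries (open circles) and the 4 RPS6 RIP libraries (filled circles), with a line joining the libraries of a cell line. For LSS and SREBF2 every RIP lies above every input, and for HMGCS1 in Hep3B the points coincide at 92.6 FPKM.

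The upstream sequences of LSS, DHCR7 and SREBF2 and of INSIG1 are shown because all 4 belong to a pathway controlled through sterol regulatory elements in promoters. They are RefSeq sequences of GRCh38.p14, the 250 bases before the annotated start, printed 5′ to 3′ on the strand of the gene, and capitals mark matches to TCACNCCAC (a sterol regulatory element, N standing for any base), CCAAT (printed ATTGG where it lies on the opposite strand) and CACGTG (an E box), each searched on both strands.
SREBF2, chr22:41832855-41833104, plus strand: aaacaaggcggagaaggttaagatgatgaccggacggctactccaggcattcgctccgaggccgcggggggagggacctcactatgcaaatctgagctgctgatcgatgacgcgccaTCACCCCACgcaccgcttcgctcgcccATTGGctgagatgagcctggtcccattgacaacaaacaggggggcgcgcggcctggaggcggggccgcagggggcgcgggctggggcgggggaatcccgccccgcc
LSS, chr21:46228775-46229024, minus strand: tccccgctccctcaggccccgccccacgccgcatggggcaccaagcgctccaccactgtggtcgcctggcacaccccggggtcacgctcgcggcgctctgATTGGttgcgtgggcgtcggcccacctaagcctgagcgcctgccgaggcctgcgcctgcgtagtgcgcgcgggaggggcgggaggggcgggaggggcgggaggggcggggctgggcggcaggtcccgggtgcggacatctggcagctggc
DHCR7, chr11:71448394-71448643, minus strand: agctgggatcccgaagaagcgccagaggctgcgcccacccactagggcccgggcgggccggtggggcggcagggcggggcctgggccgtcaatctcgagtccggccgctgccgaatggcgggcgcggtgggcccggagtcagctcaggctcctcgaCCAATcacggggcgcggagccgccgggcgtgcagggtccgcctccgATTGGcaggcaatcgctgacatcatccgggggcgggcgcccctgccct
INSIG1, chr7:155297628-155297877, plus strand: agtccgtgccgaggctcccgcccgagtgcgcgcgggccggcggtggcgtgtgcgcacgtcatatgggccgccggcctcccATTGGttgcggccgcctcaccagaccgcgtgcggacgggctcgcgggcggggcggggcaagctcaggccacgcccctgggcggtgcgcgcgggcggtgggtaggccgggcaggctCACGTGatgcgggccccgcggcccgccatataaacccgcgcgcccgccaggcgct
The SREBF2 window held TCACNCCAC, beginning 133 bases before the start, and an inverted CCAAT beginning 106 bases before it, without overlap. No window of the other 5 genes searched held TCACNCCAC, which occurred in 396 of 35116 RefSeq promoter windows of 300 bases (1.13%). Variants of this pattern and bases outside the windows were not searched, so an element there would have been missed. In LSS an inverted CCAAT began 150 bases before the start and a CACGTG lay after it, outside the printed bases, and the DHCR7 window held a CCAAT and an inverted CCAAT, 94 and 48 bases before it. INSIG1 held an inverted CCAAT 170 bases and a CACGTG 55 bases before the start. CCAAT was found in 34.6% of all windows and CACGTG in 7.26%. HMGCS1 and FDPS, whose windows are not printed, held 2 and 3 matches to CCAAT. DHCR7 has a further annotated start, whose window held none of these motifs and is not printed. The 300-base windows of the 4 printed sequences held between 68.0% and 78.3% G and C and the further DHCR7 window 57.0%, against a median of 58.7% over all windows. Matches of letters describe the sequence, and RIP libraries carry no measurement of factors at these promoters.

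Between cell lines, the levels of the 8 genes did not rise or fall as a unit. SW1990 gave the lowest input for 5 of 8 genes and the lowest RIP for 5 of 8. Among the inputs, Hep3B was highest for 3 genes, DU145 for 3, HCT116 for 1 and SW1990 for 1. Among the RIPs, DU145 was highest for 4 genes, Hep3B for 3 and HCT116 for 1. The highest and lowest inputs differed 7.32-fold for HMGCS1, 6.37-fold for DHCR7, 4.69-fold for INSIG1, 2.79-fold for SREBF2, 2.46-fold for SQLE and 1.77-fold for FDPS. Hep3B and HCT116 were normalized in 1 table and DU145 and SW1990 in another, each line is 1 culture, and fewer cells expressing a gene cannot be told apart from less RNA per cell, so these orders describe the libraries. Over the 8 libraries, pairs of the genes correlated between r = -0.50 (HMGCS1 and FDFT1) and r = 0.89 (FDPS and LSS) in log2(FPKM + 1), where the 4 RIPs share their precipitation and each RIP shares its line with an input.

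Some ratios changed with the unit. The authors' FPKM gave a higher ratio of RIP to input than the estimated counts did, by a median of 0.24 on the log2 scale in Hep3B and between 0.12 and 0.13 in the other lines over all genes with a value in both. For INSIG1 in Hep3B the counts went from 1283 in the input to 929 in the RIP while FPKM went from 19.4 to 30.2, a difference of 1.10 between the log2 ratios, above the 95th percentile of all genes in that line (1.03). HMGCS1 in Hep3B went from 8195 to 4973 counts with no change in FPKM, a difference of 0.72. For LSS, DHCR7 and SREBF2 the difference was between -0.26 and 0.17 in every line. Length or isoform weights behind the FPKM were not tested.

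**Figure D3:**
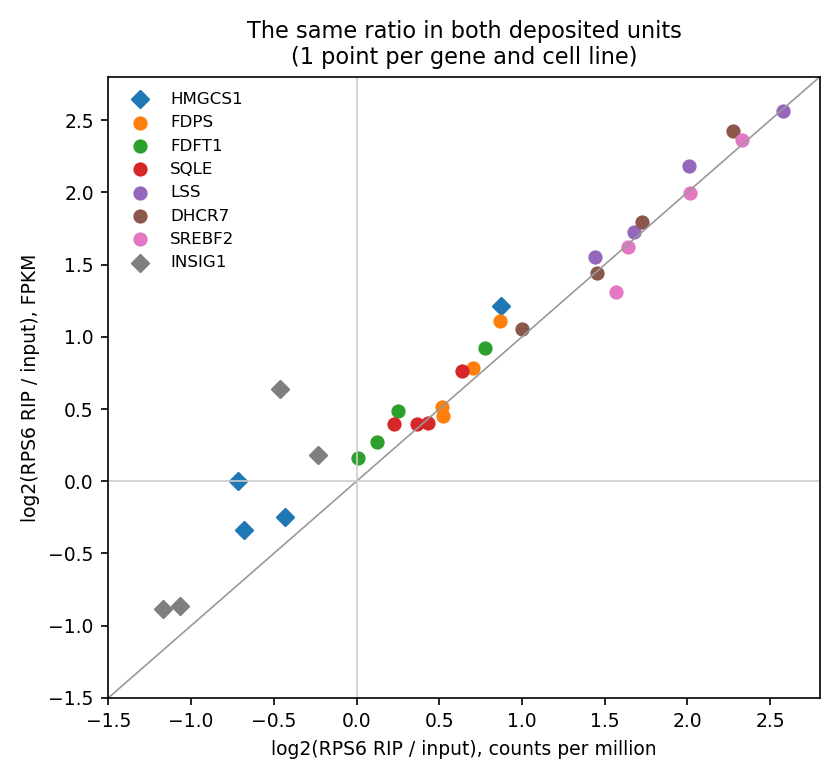
The log2 ratio of RPS6 RIP to input from FPKM (vertical axis) against the same ratio from counts scaled to library size with TMM factors (horizontal axis), 1 point per gene and cell line, with the diagonal marking equal values. The INSIG1 point of Hep3B lies farthest above the diagonal, at -0.46 on counts.

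On FPKM, the mean log2 ratio over the 4 lines with its standard deviation was 1.93 ± 0.42 for LSS, 1.65 ± 0.58 for DHCR7, 1.79 ± 0.44 for SREBF2, 0.71 ± 0.30 for FDPS, 0.48 ± 0.18 for SQLE and 0.46 ± 0.34 for FDFT1. All 6 were above 0 in 4 of 4 lines and reached a two-sided exact sign-flip p of 0.125, the smallest that 4 pairs allow. HMGCS1 gave 0.15 ± 0.69 and INSIG1 -0.23 ± 0.75, each above 0 in 2 of 4 lines. With 4 ratios of the same sign this p is 0.125 whatever their spread, so it reflects the shared sign only. The spread between cell lines is given by the standard deviations.

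The rest of the pathway went both ways, as did all genes tested, of which 26.5% were higher and 24.9% lower. Of the 7 other enzymes from acetyl-CoA to squalene, 2 were higher in the RIP (28.6%), 3 were lower (42.9%) and 2 did not pass. Their median log2 fold change was -0.19. MVD and MVK, a decarboxylase and a kinase of mevalonate metabolism, were higher by 1.44 ± 0.19 and 0.90 ± 0.18 (SE, 4 lines). MVD went from 20.5 to 56.2 FPKM in Hep3B, 34.8 to 70.9 in HCT116, 31.2 to 74.7 in DU145 and 17.4 to 50.5 in SW1990, without overlap between inputs and RIPs. IDI1 interconverts the isoprene building blocks. GGPS1 makes the geranylgeranyl precursor, on a branch away from squalene, but was counted in this list. Their log2 fold changes were -1.73 ± 0.19 and -1.98 ± 0.20. IDI1 fell from 31.4 to 9.59 FPKM in Hep3B, 40.8 to 13.5 in HCT116, 44.7 to 15.3 in DU145 and 29.0 to 11.5 in SW1990, again without overlap. ACAT2, which joins acetyl-CoA units, had a log2 fold change of -0.82 ± 0.18. On FPKM its call was lost (limma on log2(FPKM + 1), -0.41, adjusted p = 0.0733).

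Of the 9 other enzymes from lanosterol to cholesterol, 3 were higher (33.3%), 4 were lower (44.4%) and 2 did not pass. Their median was -0.44, and the shares over all genes tested were 26.5% higher and 24.9% lower. TM7SF2, a sterol reductase, and NSDHL, a sterol dehydrogenase, were higher by 1.51 ± 0.21 and 0.76 ± 0.21. In edgeR the NSDHL call was lost with library totals (0.41, adjusted p = 0.136) and without the Hep3B pair (0.60, adjusted p = 0.0666). SC5D, MSMO1, CYP51A1 and LBR had log2 fold changes of -1.64 ± 0.19, -1.41 ± 0.23, -1.04 ± 0.20 and -0.75 ± 0.19. On FPKM the call of LBR was lost (limma on log2(FPKM + 1), -0.40, adjusted p = 0.114). Without the cell line as a block, none of these genes, higher or lower, passed in edgeR. Thus TM7SF2 and LBR, which both encode sterol reductases for the same step, lay on opposite sides of 0.

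Of 12 regulators of SREBP, 4 were higher (33.3%), 2 were lower (16.7%) and 6 did not pass, with a median of 0.01. Over all genes tested the shares were 26.5% higher and 24.9% lower. SCAP, the escort protein that carries SREBP out of the endoplasmic reticulum, went from 14.1 to 78.6 FPKM in Hep3B, 18.8 to 44.4 in HCT116, 23.3 to 98.5 in DU145 and 22.3 to 117 in SW1990, a log2 fold change of 2.31 ± 0.25 (SE, 4 lines, adjusted p = 3.90e-05). SREBF1, the paralog of SREBF2, was higher by 2.40 ± 0.20 and MBTPS1, the protease that makes the initial cut in SREBP, by 1.15 ± 0.19. INSIG2, the paralog of INSIG1, was lower in 4 of 4 lines, from 47.8 to 20.9 FPKM in Hep3B, 18.5 to 3.06 in HCT116, 15.7 to 5.44 in DU145 and 12.1 to 3.18 in SW1990, with a log2 fold change of -2.26 ± 0.25 (adjusted p = 4.25e-05). RNF139, a ubiquitin ligase of the endoplasmic reticulum, had a log2 fold change of -1.002 ± 0.22. Both SREBF genes and SCAP were thus higher in the RIP and both INSIG genes lower on counts, with INSIG1 lower on FPKM in 2 of 4 lines.

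**Figure D4:**
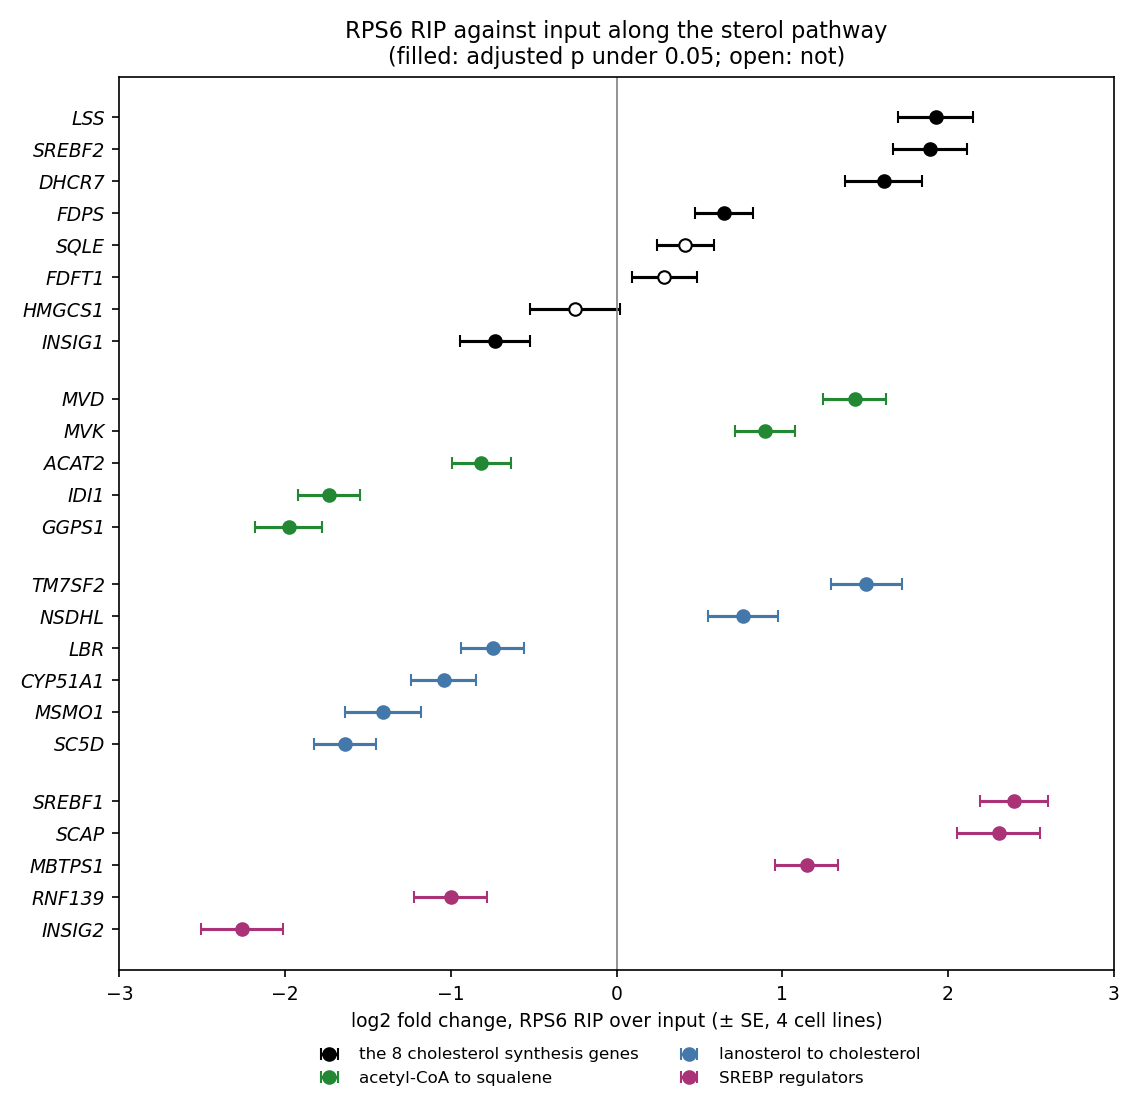
Fitted log2 fold change of RPS6 RIP over input with its standard error over 4 cell lines, for the 8 genes and for 16 of the 18 genes of 3 further lists that passed the test (the other 2 are not reported here), filled where the adjusted p was under 0.05. Every list has genes on both sides of 0. The list from acetyl-CoA to squalene, in which GGPS1 of the geranylgeranyl branch was counted, runs from GGPS1 (-1.98) to MVD (1.44). The regulators run from INSIG2 (-2.26) to SREBF1 (2.40).

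In the transport and storage of sterols, 8 of 13 genes were higher, 4 were lower and 1 did not pass, with a median of 1.25. The shares were 61.5% higher and 30.8% lower, beside 26.5% and 24.9% over all genes tested. The scavenger receptor SCARB1 was higher by 1.82 ± 0.20, the sterol-sensing nuclear receptors NR1H2 and NR1H3 by 1.79 ± 0.18 and 1.25 ± 0.20, the lysosomal exporter NPC1 by 1.14 ± 0.19, and the efflux pump ABCA1 by 2.001 ± 0.23. ABCA1 was low in the inputs, at 6.69 FPKM for Hep3B, 0.44 for HCT116, 1.09 for DU145 and 0.022 for SW1990. Its call was lost with edgeR without the block (adjusted p = 0.524) and with limma without a filter on low values (adjusted p = 0.0772). STARD4, a soluble sterol carrier, NPC2, the lysosomal partner of NPC1, and SOAT1, which esterifies cholesterol, had log2 fold changes of -2.29 ± 0.21, -1.11 ± 0.24 and -0.89 ± 0.25. On FPKM, SOAT1 was higher in the RIP in Hep3B (92.2 to 108) and SW1990 (4.22 to 6.32) and lower in HCT116 and DU145. For SOAT1 limma on log2(FPKM + 1) gave -0.30 (adjusted p = 0.449). Of 7 genes of fatty acid synthesis, which SREBPs also control, 4 were higher (57.1%), 1 was lower (14.3%) and 2 did not pass. Their median was 0.99. FASN, the fatty acid synthase, was higher by 3.44 ± 0.28 and went from 34.6 to 243 FPKM in Hep3B, 118 to 1411 in HCT116, 83.0 to 536 in DU145 and 67.8 to 651 in SW1990. ACACA and ACLY were higher by 2.16 ± 0.22 and 2.01 ± 0.25, while ELOVL6 had a log2 fold change of -1.88 ± 0.19. Over the 5 lists together, 21 of 48 genes were higher, 14 were lower and 13 did not pass, with a median of 0.19. That is 43.8% higher and 29.2% lower, against 26.5% and 24.9% of all genes tested. With a minimum mean of 50 counts, 32.3% of the genes tested were higher and 30.4% lower, and the 5 lists again held 21 and 14. The lists were chosen with earlier results of these data known, so their shares are descriptive.

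The 8 genes are grouped here by the place of the encoded protein as a description only, and a link between place and recovery was not tested. Of the soluble enzymes, FDPS had a log2 fold change of 0.65 and HMGCS1 of -0.25. Among the proteins spanning the membrane of the endoplasmic reticulum or anchored in it, DHCR7 and SREBF2 lay at 1.61 and 1.89, SQLE and FDFT1 at 0.42 and 0.29, and INSIG1 at -0.73. LSS, which sits on the membrane without a spanning helix, lay at 1.92.

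Among 11323 genes outside the lists with a mean of at least 5 FPKM, those most like the mean profile of the 8 genes over the 8 libraries were ARHGEF2, ZMIZ1, PSAP, RUSC2 and PI4KB, each with r = 0.98 in log2(FPKM + 1). The gene most like each member was PLS3 for HMGCS1 (r = 0.97), ASH1L for FDPS (0.98), GSG2 for FDFT1 (0.97), HEG1 for SQLE (0.995), MICAL1 for LSS (0.99), ST3GAL2 for DHCR7 (0.99), SRC for SREBF2 (0.99) and TMEM64 for INSIG1 (0.96). These are the highest of many correlations over 8 libraries that share 4 lines, and they describe the shape of the profiles only.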

How the data were processed

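The authors sequenced stranded libraries of total RNA from 4 inputs and 4 RPS6 RIPs, and per the labels processed reads with CASAVA 1.8 and aligned them to hg19 with TopHat2 2.0.9. The counting tool, its annotation and its use of strand are not given in the sources used here. They deposited FPKM and an estimated count per gene in 2 tables normalized separately, and ratios with p-values per cell line that were not used. The estimated counts were scaled by 1 step per library (0.673 to 1.27), and dividing by it made 86.6% to 92.2% of values whole within 0.01, which gave the fragments used for depth. For the test the estimated counts were rounded. The design had foreseen raw counts.

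edgeR 4.0.16 (R 4.3.3) fitted all 8 libraries with TMM factors, the cell line as a block and a minimum mean of 10 counts per gene, with Benjamini-Hochberg adjustment over 19921 genes at a threshold of 0.05. The pairing comes from the labels: deviations of a RIP from its group mean and those of the matching input had r of 0.85 to 0.90, against -0.02 or less for other inputs, across genes, which are not independent replicates. Each group mean holds all 4 lines, so centring on it pulls the r with other inputs below 0. That part of the contrast is built in. limma 3.58.1 on log2(FPKM + 1), DESeq2 1.42.0, other scalings and filters, leaving out each pair and each table alone were alternatives. Recovered fragments were added after seeing the data. The fits were tested on simulated data. Named are the 8 members, called genes of the other lists with 1 direction in 4 of 4 lines, FDPS pseudogenes and the most similar genes, of which some are not reported here. Members and lists were chosen with earlier results of these data known. PECAM1 of the marker lists was not used. RefSeq promoters (GRCh38.p14) matched 6 of 8 members.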

Additional observations from a re-analysis of the deposited data

Results flagged for a closer look

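Among 24 sets of 4 values, 2 held a value far from the other 3, and chance alone marks about 1 set in 20. The DHCR7 input of DU145 stood at 141 FPKM, with the next highest input at 35.5 FPKM in Hep3B. The log2 ratio of SQLE in Hep3B on FPKM was 0.75, with the next highest line at 0.39, and without the Hep3B pair the fitted log2 fold change of SQLE was 0.25 in place of 0.42, not passing in either case.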

How the results depend on the processing

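LSS and SREBF2 kept their direction and their call in all 16 other settings, with log2 fold changes of 1.58 to 2.01 and 1.54 to 2.004. Of 544 values of 34 other pathway genes, 481 kept direction and call, 63 kept direction and lost the call, and 0 changed sign. These 34 were picked for passing with 1 direction in 4 of 4 lines of the same data. A kept sign was thus favoured in advance and is no check on them. Without the cell line as a replicate block, 1427 genes were higher and 1344 lower, or 7.16% and 6.75% of those tested. Among them were 2 and 0 of the 8 members and 6 and 4 of the 48 genes of the other lists. In that setting FDPS (0.65), DHCR7 (1.62) and INSIG1 (-0.86) no longer passed. With library totals, FDPS at 0.30 lost its call and FDFT1 turned to -0.060. DESeq2 called SQLE at 0.43, which limma on filtered FPKM also called with pseudocounts of 1 (0.48) and 0.1 (0.49). On FPKM, limma called 0 members lower at either pseudocount and without a filter, INSIG1 stood at -0.23 in each of these and HMGCS1 turned to 0.15, 0.16 and 0.15. Over all genes tested, limma called 20.1% lower at a pseudocount of 1 and 21.0% at 0.1. Without a filter limma called 2324 genes lower (6.08% of those tested), 8 of them in the other lists. In the table of Hep3B and HCT116 alone 3293 genes were higher and 3292 lower, each 17.1% of those tested. There 0 members were lower, HMGCS1 turned to 0.018, and FDPS (0.63) and INSIG1 (-0.87) lost their calls. In the table of DU145 and SW1990, 0 members were lower, beside 21.6% of the genes tested. There FDPS (0.54) and INSIG1 (-0.72) lost their calls.

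With each cell line left out in turn, 4448 to 4808 genes were higher (22.7% to 24.9% of those tested) and 4084 to 5083 lower (20.8% to 26.3%). Of the members, 3 to 4 were higher and 0 to 1 lower. HMGCS1 ran from -0.60 to -0.10, FDPS from 0.59 to 0.69 and INSIG1 from -0.92 to -0.58. The cause of these changes was not tested.

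No cell line had more than 1 library of a kind, no control antibody was measured, and the precision rests on 4 lines. The 95% counting interval reached at most 7.34% above the share of fragments of any of these 8 genes, and was not computed for FPKM.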
